A study of Mus musculus with 8 samples.

Results

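The 10 circadian clock genes Arntl, Clock, Per1, Per2, Per3, Cry1, Cry2, Nr1d1, Dbp and Hlf were followed in whole lungs of mice at postnatal day 21. They were chosen by symbol: each is represented by the probe set that is annotated with that single gene symbol and has the highest mean over the 8 arrays, and each of the 10 genes had exactly 1 such probe set. They are 10 of 19937 genes measured in this way. Total RNA of 4 lungs with a stabilized form of beta-catenin and of 4 lungs with beta-catenin knocked out was hybridised to 1 Affymetrix array per mouse. The labels describe all 8 lungs as untreated and all mice as male, and call the arrays of a group biological replicates, numbered 1 to 4. Beta-catenin carries the Wnt signal to the nucleus and links cadherins at cell junctions, and a stabilized form is not degraded as the normal protein is. The Cre driver, the altered exons, the time of day at which lungs were taken and the light schedule are not stated in those labels, and unmodified lungs were not analysed here, so each difference is between the 2 altered genotypes only.

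The circadian clock is a transcriptional feedback loop that runs in nearly every mammalian cell. The proteins of Arntl (BMAL1) and Clock form a dimer that binds E-box sequences and switches on the Period, Cryptochrome, Nr1d1 and Dbp genes. Period and Cryptochrome proteins then inhibit the dimer, the nuclear receptor NR1D1 (REV-ERB alpha) represses Arntl and Clock, and DBP and HLF drive output genes through D-box sequences. In tissues of mice kept on a light and dark cycle, Arntl transcript is highest around the start of the light phase, Nr1d1, Dbp, Hlf and the Period genes are highest later in the light phase or around its end, and Cry1 is highest later in the dark phase. Transcripts of Arntl and of the Dbp and Period genes are therefore found at opposite ends of the daily cycle. The lung has such a clock, which is well described in the club cells of its airways.

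Sequences around the start sites show which of these elements lie close to the members. Promoters were taken from RefSeq (GRCm38.p6), as windows from 250 bases before to 50 bases after a start site, and 9 of the 10 members matched, the other being Per2. The motifs searched for on both strands, none of which overlapped another in the members, were the E-box CACGTG, the D-box written as TTATGTAA or TTACGTAA, and AGGTCA, the core bound by nuclear receptors such as the REV-ERB and ROR proteins. The promoters of Per3, Per1, Cry1 and Arntl, which each held such a match, are printed 5′ to 3′ with the matches in capitals. The differences of these genes between the groups had both signs, and none of them passed the test given below. A window of Clock that is not printed also held a match, and Clock did pass that test.

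Per3 (chr4:151044616-151044915, minus strand): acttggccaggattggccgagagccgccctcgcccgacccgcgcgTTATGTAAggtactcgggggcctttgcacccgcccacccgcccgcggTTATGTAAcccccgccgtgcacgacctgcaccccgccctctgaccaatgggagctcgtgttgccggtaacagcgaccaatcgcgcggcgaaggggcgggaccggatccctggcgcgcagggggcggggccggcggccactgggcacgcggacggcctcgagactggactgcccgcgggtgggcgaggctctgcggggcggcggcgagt
Per1 (chr11:69098699-69098998, plus strand): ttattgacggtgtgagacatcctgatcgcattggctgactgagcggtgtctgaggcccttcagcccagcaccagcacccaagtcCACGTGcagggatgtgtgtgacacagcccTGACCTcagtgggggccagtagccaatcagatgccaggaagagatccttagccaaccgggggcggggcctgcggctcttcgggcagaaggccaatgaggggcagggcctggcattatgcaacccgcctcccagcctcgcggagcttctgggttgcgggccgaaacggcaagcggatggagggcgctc
Cry1 (chr10:85185005-85185304, minus strand): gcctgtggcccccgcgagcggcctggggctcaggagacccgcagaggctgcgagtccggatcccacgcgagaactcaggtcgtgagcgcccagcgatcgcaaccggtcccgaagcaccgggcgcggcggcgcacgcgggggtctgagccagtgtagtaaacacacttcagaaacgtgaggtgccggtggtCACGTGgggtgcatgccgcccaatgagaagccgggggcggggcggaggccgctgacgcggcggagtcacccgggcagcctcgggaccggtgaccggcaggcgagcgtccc
Arntl (chr7:113207261-113207560, plus strand): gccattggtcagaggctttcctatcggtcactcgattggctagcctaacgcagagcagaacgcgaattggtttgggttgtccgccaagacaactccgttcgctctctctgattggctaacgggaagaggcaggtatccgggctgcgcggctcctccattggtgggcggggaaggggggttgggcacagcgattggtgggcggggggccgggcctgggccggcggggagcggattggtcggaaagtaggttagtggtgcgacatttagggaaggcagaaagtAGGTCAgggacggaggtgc

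The Per3 window held 2 D-boxes, starting 205 and 158 bases before the start site, and such a match is found in 1.06% of 32851 promoters in the table. The windows of Per1 and Cry1 each held 1 E-box, starting 166 and 60 bases before the start site, against 7.15% of all promoters. AGGTCA or its complement lay at base 32 after the second start site of Arntl and 137 bases before the first of Per1, and in 1 window of Clock, against 16.3% of all promoters. The windows of Cry2, Nr1d1, Dbp and Hlf held none of these letters. These matches describe the printed windows only.

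Of the 8 arrays, 4 went against the sex on their labels. Xist, the RNA that coats the silenced X chromosome in females, had log2 values of 10.59 and 10.36 in stabilized replicates 1 and 4, against 4.62 and 4.18 in stabilized replicates 2 and 3. It had values of 10.55 and 10.42 in knockout replicates 1 and 3, against 4.56 and 4.40 in knockout replicates 2 and 4. The Y-linked gene Kdm5d ran the other way on every array. Both groups were made up of 2 arrays with each pattern, and results for the clock genes are given below for all arrays and within each pattern. The lung markers were present in both groups: the mean log2 level of the type 2 cell genes Sftpc, Lamp3 and Abca3 lay between 11.2 and 11.4 in stabilized and between 11.0 and 11.1 in knockout lungs. Values are log2 expression after RMA, in which a difference of 1 is a 2-fold change.

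Stabilized lungs had a higher level of the activator gene Clock and lower levels of the repressor genes Nr1d1 and Cry2 and of the output factor gene Hlf than knockout lungs, by 1.21-fold to 1.45-fold. A gene was called when the Benjamini-Hochberg adjusted p of limma's moderated test was under 0.05 over all genes, and 9.62% of all genes were called by this rule, 4.65% higher and 4.96% lower (or 64.4% of the called genes higher after centring each array on its median, against 48.4%). Of the 10 clock genes, 4 were called: Clock was higher, and Hlf, Nr1d1 and Cry2 were lower. The other 6 did not pass, with differences between -0.47 for Dbp and 0.34 for Arntl. The median difference of the 10 genes was -0.28, while that of all genes was -0.01. The stabilized and knockout arrays did not overlap in 4 of the 10 clock genes, against 16.9% of all genes (9.06% higher and 7.82% lower). These were the same 4 genes that were called, from the same arrays.

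**Figure D1:**
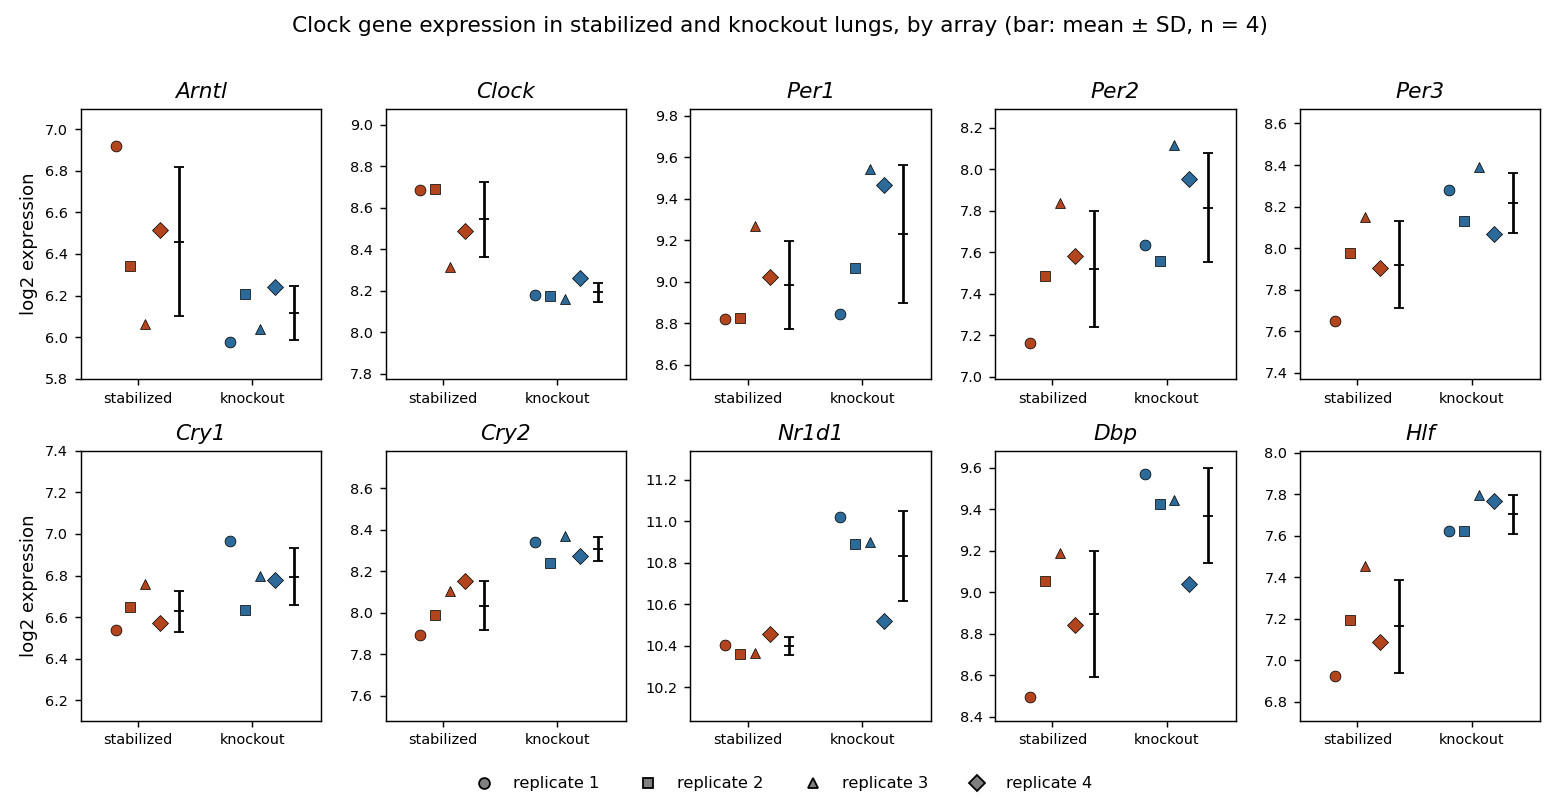
Log2 expression of the 10 clock genes on each array, stabilized lungs on the left (orange) and knockout lungs on the right (blue) of each panel; symbols mark the replicate number and bars the mean ± SD of 4 arrays, and every panel spans the same height. The stabilized and knockout points are apart for Clock, Cry2, Nr1d1 and Hlf, and stabilized replicate 1 (circle) is the highest array for Arntl and the lowest for Dbp.

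Of the activators, Clock encodes the histone-acetylating partner of the dimer. Its log2 values were 8.68, 8.69, 8.31 and 8.49 in stabilized replicates 1 to 4, against 8.18, 8.17, 8.16 and 8.26 in knockout replicates 1 to 4. Every stabilized array lay above every knockout array, although stabilized replicate 3 exceeded knockout replicate 4 by little. The difference was 0.35 ± 0.09 (SE, n = 4 per group, limma adjusted p = 0.022), a 1.28-fold increase. It no longer passed once stabilized replicate 1 (adjusted p = 0.076) or 2, or knockout replicate 2 or 3, was left out, where the difference stayed between 0.30 and 0.34.

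Arntl encodes BMAL1, the partner of CLOCK. Its log2 values were 6.92, 6.34, 6.06 and 6.52 in stabilized replicates 1 to 4, against 5.98, 6.21, 6.04 and 6.24 in knockout replicates 1 to 4. Of the stabilized arrays 3 lay above all knockout arrays, and replicate 3 lay among them. The difference was 0.34 ± 0.14 (SE, limma adjusted p = 0.16, 95% interval 0.03 to 0.66). It was 0.19 without stabilized replicate 1 and 0.48 without stabilized replicate 3, where it passed (adjusted p = 0.038). The knockout arrays were close together, with an SD of 0.13, against 0.36 in the stabilized arrays.

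Of the Period genes, which encode the scaffold of the inhibitory complex, none passed the test, and each had a negative difference. Per1, which also responds quickly to hormones, lay at 8.82, 8.82, 9.27 and 9.02 in stabilized replicates 1 to 4, against 8.85, 9.06, 9.54 and 9.46 in knockout replicates 1 to 4. Per2 lay at 7.16, 7.49, 7.84 and 7.58 in stabilized replicates 1 to 4, against 7.63, 7.56, 8.12 and 7.95 in knockout replicates 1 to 4. For both genes the groups overlapped and replicate 3 was the highest array of either group. The differences were -0.25 ± 0.15 for Per1 (SE, limma adjusted p = 0.34) and -0.30 ± 0.15 for Per2 (SE, limma adjusted p = 0.23). Per3, the Period gene whose printed promoter holds D-boxes, lay at 7.65, 7.98, 8.15 and 7.90 in stabilized replicates 1 to 4, against 8.28, 8.13, 8.39 and 8.07 in knockout replicates 1 to 4. Only the highest stabilized array reached into the knockout range, and the difference was -0.30 ± 0.10 (SE, limma adjusted p = 0.099).

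The Cryptochrome genes encode the repressors that bind the dimer directly. Cry2 had log2 values of 7.89, 7.99, 8.11 and 8.15 in stabilized replicates 1 to 4, against 8.34, 8.24, 8.37 and 8.27 in knockout replicates 1 to 4. The groups did not overlap, and Cry2 fell by 0.27 ± 0.07 on the log2 scale (SE, limma adjusted p = 0.033), a 1.21-fold decrease. This call is the least stable of the 4: it failed in 6 of 8 fits on 7 arrays (every one except those without stabilized replicate 3 or 4), with differences between -0.22 and -0.31 over the 8 fits. It also failed after each array was centred on its median (difference -0.23, adjusted p = 0.059). Cry1, whose transcript peaks later in the cycle than that of the other repressors, lay at 6.54, 6.65, 6.76 and 6.57 in stabilized replicates 1 to 4, against 6.97, 6.64, 6.80 and 6.78 in knockout replicates 1 to 4. The groups overlapped through knockout replicate 2, and the difference was -0.17 ± 0.08 (SE, limma adjusted p = 0.22).

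Nr1d1 encodes the repressor of the stabilizing loop and was the brightest of the 10 probe sets. It lay at 10.41, 10.36, 10.37 and 10.46 in stabilized replicates 1 to 4, against 11.02, 10.89, 10.90 and 10.52 in knockout replicates 1 to 4. The stabilized arrays spanned 0.10 and all lay below the knockout arrays, of which replicate 4 came close to them. Nr1d1 fell by 0.43 ± 0.09 (SE, limma adjusted p = 0.012), a 1.35-fold decrease, and passed in each of the 8 fits on 7 arrays (adjusted p of at most 0.042). Nr1d1 overlaps Thra on the opposite strand, and Thra itself differed by 0.06 ± 0.06 (SE, limma adjusted p = 0.60).

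Dbp and Hlf encode transcription factors of one family, which bind D-boxes and carry the rhythm to output genes. Hlf lay at 6.92, 7.19, 7.45 and 7.09 in stabilized replicates 1 to 4, against 7.62, 7.62, 7.80 and 7.77 in knockout replicates 1 to 4. The groups did not overlap, and Hlf fell by 0.54 ± 0.10 (SE, limma adjusted p = 0.0050), a 1.45-fold decrease and the widest difference of the 10 genes. It passed in each of the 8 fits on 7 arrays (adjusted p of at most 0.021). Dbp lay at 8.50, 9.06, 9.19 and 8.84 in stabilized replicates 1 to 4, against 9.57, 9.42, 9.44 and 9.04 in knockout replicates 1 to 4. Knockout replicate 4 lay below stabilized replicates 2 and 3, so the groups overlapped, and the difference of -0.47 ± 0.14 missed the threshold (SE, limma adjusted p = 0.059, 95% interval -0.79 to -0.16). It passed without knockout replicate 4 (-0.58, adjusted p = 0.022) or stabilized replicate 3 (-0.57, adjusted p = 0.030).

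**Figure D2:**
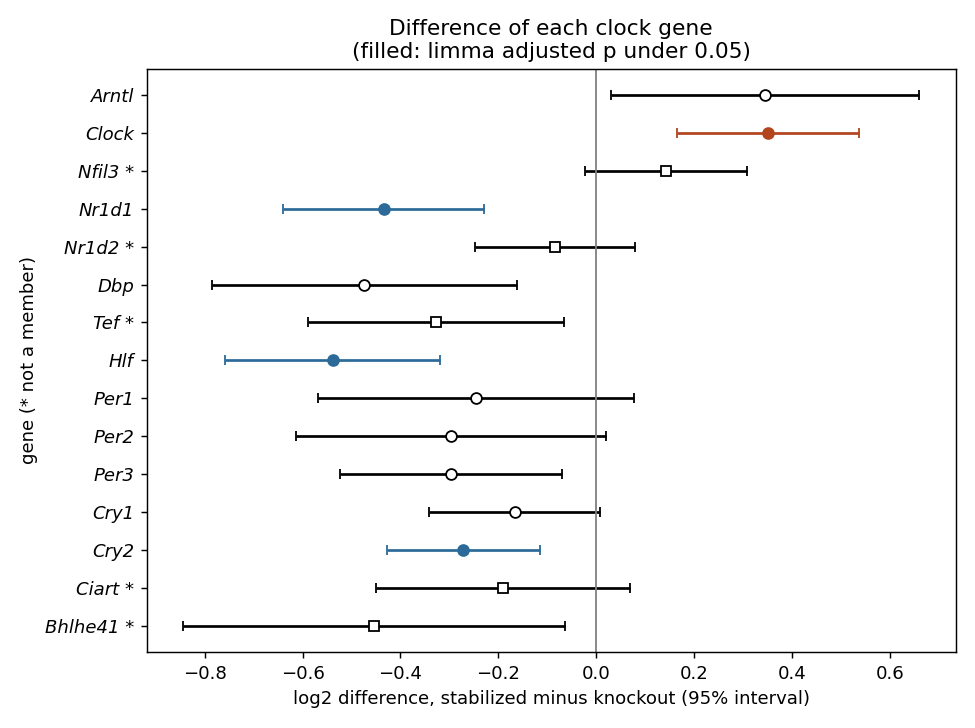
Log2 difference, stabilized minus knockout, with 95% intervals from limma, for the 10 clock genes (circles) and 5 further clock genes (squares, marked *); filled symbols passed an adjusted p of 0.05. Arntl, Clock and Nfil3 lie right of 0 and the other 12 genes left of it, and the intervals of Per1, Per2, Cry1, Nfil3, Nr1d2 and Ciart reach across 0.

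Ordered by the daily peak known from mouse tissues, the differences fell into opposite signs. Both genes of the start of the light phase, Arntl and Clock, had positive differences, and 1 of them was called. All 8 genes that peak later had negative differences, and 3 of them were called. Cry1 peaks last of these, late in the dark phase and so shortly before Arntl, and is not at the opposite end of the cycle. It had the smallest difference, of the other sign than Arntl. Clock, whose daily change is known to be shallow in many tissues, differed as much as Arntl. The sign of the difference was the same for each of the 10 genes in all 8 fits without 1 array. It was also the same after median centring and after repeated quantile normalization. Changes of prior, filter and probe set could not alter it, because each gene has 1 probe set and its group means stay as they are. The exception was Arntl among the 4 arrays with Y-linked expression, given below. The time at which each lung was taken is not given in the labels, so time of day and genotype cannot be told apart.

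Mice of one group also differed from each other in the clock genes. The spread among mice of a group, taken as the pooled within-group SD, was 0.27 for Arntl, 0.28 for Per1, 0.27 for Per2 and 0.27 for Dbp, and these genes lay between the 98.3 and 98.6 percentile of all genes. In Cry2 it was 0.09, at the 34.8 percentile. Of the 8 later-peaking genes, 7 were lowest in stabilized replicate 1, which had the highest Arntl value of all arrays. Among the stabilized arrays, 6 of the same 8 genes were highest in replicate 3, which had the lowest Arntl value of its group. Among knockout arrays, 5 of the 8 were highest in replicate 3 and 3 in replicate 1, the pair with the lowest Arntl values.

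**Figure D3:**
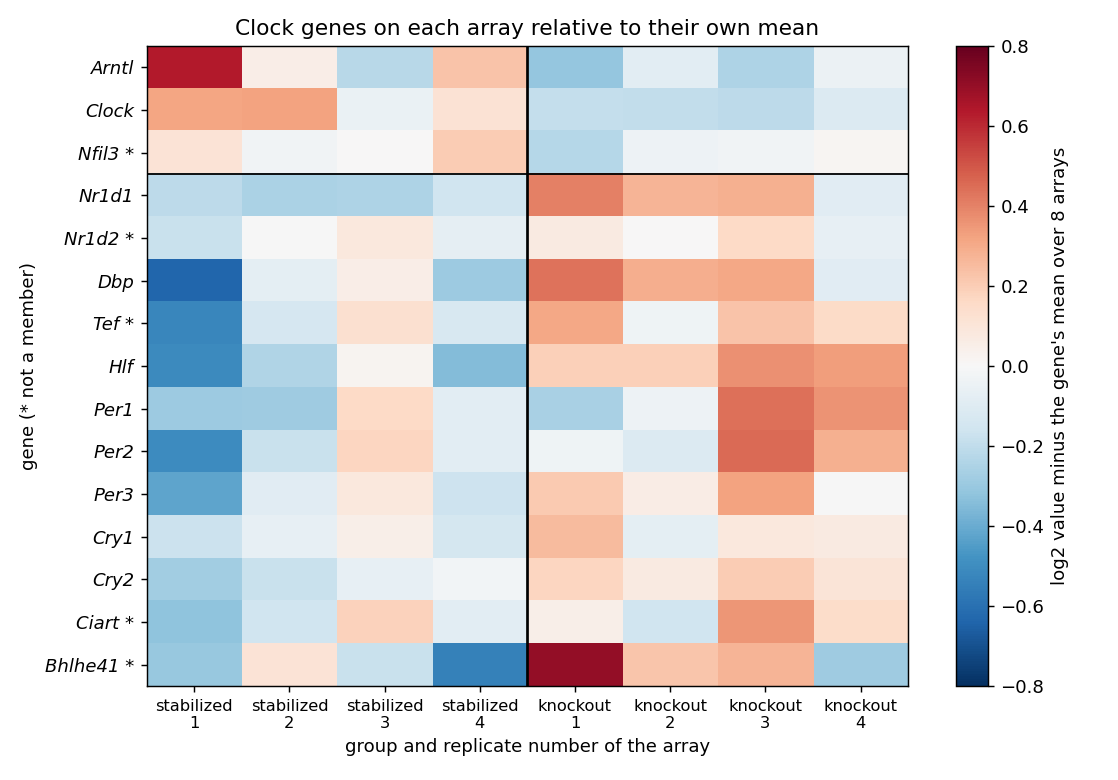
Each gene's log2 value on each array minus its own mean over the 8 arrays, with the 4 stabilized arrays left of the vertical line and the 4 knockout arrays right of it; genes above the horizontal line peak around the start of the light phase and those below it later, and * marks genes that are not members. Stabilized replicate 1 is the highest array for Arntl and the lowest for 7 of the 8 later-peaking members.

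Taking each array's deviation from its group mean, Arntl and the output genes ran in opposite directions over the 8 arrays. The Pearson correlation with Arntl was -0.94 for Per3 (Spearman -0.93), the lowest of 9969 genes, and -0.91 for Dbp (Spearman -0.98), at rank 6 from the lowest. Tef and Nr1d2, close relatives of Dbp and Nr1d1, had correlations of -0.93 and -0.89. With stabilized replicates 1 and 3 left out, the arrays farthest from the middle for Arntl, the correlation was -0.84 for Per3, -0.83 for Dbp, -0.82 for Nr1d2, -0.74 for Cry1 and -0.68 for Tef. The correlation of -0.83 for Hlf became -0.08, that of -0.68 for Cry2 became -0.17 and that of -0.65 for Per2 became 0.04, so these rest on those arrays. Clock had a correlation of 0.68, which turned to -0.20 without those arrays, and the correlation of -0.28 for Per1 turned to 0.42. Nfil3, not a member, had a correlation of 0.56, and of 0.82 without those arrays. That of Nr1d1 was -0.17 over all 8 arrays and -0.58 without those arrays. The genes of an array share its lung's cell makeup and its processing.

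**Figure D4:**
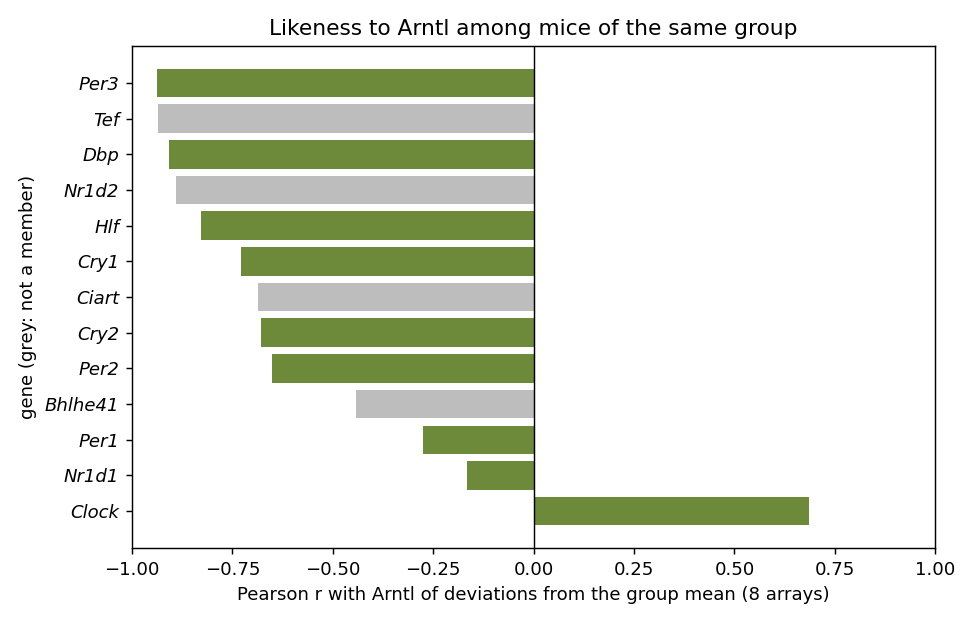
Pearson correlation with Arntl of each gene's deviations from its group mean, over 8 arrays, for the members (green) and 4 further clock genes (grey). Per3, Tef, Dbp and Nr1d2 lie between -0.94 and -0.89, and Clock is the only gene shown above 0. Nfil3, at 0.56, is not drawn.

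The genes most like a member by this measure were not clock genes. For Dbp the highest correlations were those of Ciita (0.96), Grpel1 (0.945), Lncpint, Vim and Armc10 (0.91), with Per3 at 0.89 (rank 10) and Nr1d2 at 0.88. For Arntl they were those of Ddrgk1 (0.97), Zdhhc16, Afg3l1, Hinfp and Nde1 (0.95), while Clock held rank 302 of 9969.

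The differences were also taken within each sex pattern. Among the 4 arrays with Xist expression (2 stabilized and 2 knockout), all 10 genes had the same sign as over all arrays, and 5 passed the test, where 3.36% of all genes passed in that fit. There Dbp differed by -0.84 ± 0.13, Arntl by 0.71 ± 0.14, Hlf by -0.71 ± 0.11, Per3 by -0.56 ± 0.12 and Nr1d1 by -0.53 ± 0.10 (SE, limma adjusted p of 0.016, 0.038, 0.015, 0.047 and 0.029). Among the 4 arrays with Y-linked expression, 9 of 10 had the same sign, 0 passed with limma (2 at an unadjusted p under 0.05), where 1.78% of all genes passed, and the differences were -0.37 ± 0.12 for Hlf, -0.34 ± 0.13 for Nr1d1, -0.11 ± 0.14 for Dbp and -0.02 ± 0.12 for Arntl (SE). A test of the difference between the patterns itself, by an interaction term in limma, called 0 of the 10 genes and 0 of all genes (adjusted p of at least 0.995 for the 10), while 4 of the 10 and 4.22% of all genes had an unadjusted p under 0.05. The interaction was 0.73 ± 0.20 for Arntl, -0.73 ± 0.21 for Dbp and -0.52 ± 0.16 for Per3 (SE). The arrays with Xist expression include stabilized replicate 1, the highest for Arntl, and knockout replicates 1 and 3, the lowest of their group for Arntl. The sex pattern and these single arrays cannot be told apart here. With Xist as a covariate, the same 4 genes were called as without it.

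Of a list of 32 further clock genes 27 were measured, of which 1 was higher (against 9.62% of all genes called), 0 were lower and 26 did not pass (limma, 8 at an unadjusted p under 0.05), with a median difference of 0.04. Csnk1d, a casein kinase that phosphorylates Period proteins, rose by 0.22 ± 0.06 (SE, limma adjusted p = 0.041), and failed in 7 of 8 fits on 7 arrays. The D-box factor Tef lay at 8.30, 8.69, 8.95 and 8.70 in stabilized replicates 1 to 4, against 9.13, 8.79, 9.05 and 8.97 in knockout replicates 1 to 4 (difference -0.33 ± 0.12, SE, limma adjusted p = 0.11). Its stabilized and knockout arrays overlapped only through stabilized replicate 3. Bhlhe41, a repressor that competes for E-boxes, differed by -0.45 ± 0.18, and Ciart, an inhibitor of the dimer, differed by -0.19 ± 0.12 (SE). Nr1d2, which encodes the paralogue of NR1D1, differed by only -0.09 ± 0.08, and Nfil3, which opposes DBP at D-boxes and peaks at the other end of the cycle, differed by 0.14 ± 0.08 (SE, limma adjusted p of 0.53 and 0.28). Npas2, the paralogue of Clock, was not analysed here.

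Of 12 measured genes known to follow the clock in mouse tissues, 0 rose, 2 fell and 10 did not pass, where 4.65% of all genes were called higher and 4.96% lower. The median difference of these genes was -0.05. Usp2, a deubiquitinase that cycles in most mouse organs, fell by 0.37 ± 0.09, and Alas1, the rate-limiting enzyme of haem synthesis, fell by 0.33 ± 0.09 (SE, limma adjusted p of 0.029 and 0.041). Tsc22d3 and Tspan4, which also cycle in many organs, differed by -0.06 ± 0.14 and -0.03 ± 0.10 (SE). Neither passed the test.

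Systemic signals that reset tissue clocks include glucocorticoids, body temperature and stimuli that induce immediate-early genes. Beside the counts for lists of such genes, 4.65% of all genes were called higher and 4.96% lower. Of 12 glucocorticoid-responsive genes, the metallothioneins Mt2 and Mt1 fell by 1.04 ± 0.23 and 0.66 ± 0.18 (SE, limma adjusted p of 0.013 and 0.035), and 10 did not pass, among them Fkbp5 at -0.06 ± 0.20 (SE). Metallothioneins respond to metals as well. Of 9 temperature-responsive genes, the chaperones Hspa8 and Hspd1 rose by 0.32 ± 0.08 and 0.27 ± 0.07 (SE, limma adjusted p of 0.021 and 0.027). The other 7 did not pass, and the list's median was 0.27. The 3 probe sets of Hspa8 disagreed, with differences of 0.32, -1.10 and 0.38 from the brightest down. Cirbp and Rbm3, both induced by mild cooling, differed in opposite directions, by -0.20 ± 0.09 and 0.07 ± 0.07 (SE, limma adjusted p of 0.22 and 0.58), and neither passed. Of 16 immediate-early genes, Ier3 rose by 0.35 ± 0.08 (SE, limma adjusted p = 0.021) and 15 did not pass. Among those 15, Fos and Egr1 differed by -0.11 ± 0.23 and -0.38 ± 0.23 (SE).

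Markers of several cell types differed between the groups beside the clock genes. In whole lung, fewer cells of a type and less RNA per cell cannot be told apart. With 3 markers per cell type, all 3 were lower in stabilized lungs for club, ciliated, T and NK, and B cells, 2 of 3 were lower for cardiac muscle, and 2 of 3 were higher for type 2 cells, fibroblasts and neutrophils. For macrophages 1 of 3 was higher, and for type 1, endothelial and smooth muscle cells 0 of 3 passed. The shares over all genes were 4.65% called higher and 4.96% called lower. The mean log2 level of the T and NK markers was 6.38, 6.42, 6.87 and 6.74 in stabilized replicates 1 to 4, against 8.33, 7.73, 8.04 and 7.37 in knockout replicates 1 to 4. In the knockout group this list had the same order of arrays as Dbp and Nr1d1, with replicate 1 highest, then 3, 2 and 4. The B cell, smooth muscle, immediate-early and further clock gene lists had that order too. None of the other members among the 10 clock genes did, and Per1 was lowest in knockout replicate 1. Some of the further clock genes had it, among them Bhlhe41 and Bhlhe40. In the stabilized group the T and NK list was lowest in replicate 1 and highest in replicate 3, as was Dbp, while Nr1d1 was lowest in replicate 2. Such orders rest on 4 arrays and were picked from many lists and genes. The club cell markers lay between 10.3 and 10.4 in stabilized and between 11.2 and 11.5 in knockout lungs. The ciliated cell markers lay between 5.88 and 6.08 in stabilized and between 6.88 and 7.03 in knockout lungs. The B cell markers lay between 5.49 and 5.73 in stabilized and between 7.04 and 7.51 in knockout lungs, and the cardiac markers between 8.51 and 8.62 in stabilized and between 8.82 and 9.21 in knockout lungs. Values on this scale do not fall to 0 for a gene that is off: the Y-linked gene Eif2s3y read 3.08 in stabilized replicate 1, which had the Xist pattern. The part of these cell types in the clock gene differences was not tested.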

How the data were processed

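RNA was purified on columns and labelled with biotin, per the labels' protocols. The authors used RMA and affy (versions not stated), per the submitters' processing notes, and the deposited values are log2 expression values for 34760 probe sets on 8 arrays. RMA's quantile normalization would hide a change in total RNA, and the array medians lay between 5.97 and 6.03. A single gene symbol was annotated for 21640 probe sets, several for 1321 and none for 11799, and the probe set with the highest mean stood for each of 19937 genes.

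Differences are stabilized minus knockout, from limma 3.58.1 (R 4.3.3; lmFit, eBayes, 12.2 total degrees of freedom) on all 8 arrays without covariate or filter, adjusted by Benjamini-Hochberg over all genes. The fit was tested on simulated data. Precision is limited by 4 arrays per group. The members and lists were chosen with earlier results of these data known. Named genes are all members, 6 further clock genes fixed by name, up to 6 called genes with the smallest p per list, and the 5 genes most like Dbp and Arntl among genes at or above the median level; Fkbp5, Tsc22d3, Tspan4, Cirbp, Rbm3, Fos, Egr1 and Thra were added after their values were seen. The sources pair no arrays across groups. Figures were drawn with matplotlib 3.10.9.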

Additional observations from a re-analysis of the deposited data

How the results depend on the processing

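All 10 clock genes kept their sign after median centring, after repeated quantile normalization and with Xist as a covariate. In the remaining settings that kept all 8 arrays their differences could not change, only the SE and adjusted p. Over the other settings that kept all 8 arrays, the number of clock genes called was 3 to 5 of 10, with 1 exception. When all 34760 probe sets were tested together, 1 (Hlf) passed with 6 at an unadjusted p under 0.05. That alternative also left 1064 of the 19937 genes called in place of 1917. Leaving out 1 array at a time gave 2 to 7 clock genes, 0 to 2 of the further clock genes and 1216 to 1839 of all genes. Hlf and Nr1d1 were the pair called without stabilized replicate 1 or 2 and without knockout replicate 2 or 3, and 7 were called without stabilized replicate 3. Without stabilized replicate 1 the genes called fell to 1216 and without knockout replicate 3 to 1235. Of the further clock genes, 0 passed in limma after repeated quantile normalization (7 at an unadjusted p under 0.05), with all probe sets (6), with the replicate block (8) or with Xist as a covariate (7). The replicate block called 5 clock genes, adding Per2 (adjusted p = 0.046), and 1828 of all genes. Over all genes, deviations of same-numbered arrays correlated between -0.01 and 0.08, and 1 of 4 stabilized arrays matched its own number best. Such a check over all genes cannot decide whether the clock genes alone vary together by replicate number. With the replicate block the SE was 0.08 for both Per1 and Per2, against 0.15 without it, while that of Cry1 was 0.08 in both fits. Centring arrays on their medians moved the share of higher genes among those called from 48.4% to 64.4%, and left Clock, Nr1d1 and Hlf called. Chosen after seeing the data, the fits within a sex pattern, of 2 arrays per group, called 670 genes among arrays with Xist expression and 354 among arrays with Y-linked expression, where 0 clock genes and 0 further clock genes passed in limma (2 and 2 at an unadjusted p under 0.05). Arntl was the exception in sign there, at -0.02. The cause of these changes was not tested.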
